A study of Mus musculus with 2 samples.

Results

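Effector Foxp3 cells are regulatory T (Treg) cells that carry at least 1 transcript of Il1rl1, Areg, Klrg1 or Tnfrsf9. They were picked from single-cell RNA of T cells sorted from mouse lung tumours. A cell was a member if it had 2 or more unique molecular identifiers (UMIs, counted molecules) of Cd3d, Cd3e and Cd3g together and at least 1 of Foxp3. It had none of Cd8a and Cd79a and at least 1 of the 4 effector genes together. All members also had at least 500 detected genes and at most 10% of their UMIs on mitochondrially coded genes. This gave 1136 cells of the 25811 deposited barcodes, 511 in the library called WTKL and 625 in the library called LYZKL. The other Foxp3 cells, which met every condition except the last, numbered 92 and 94.

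The study transplanted bone marrow into lethally irradiated KL mice, which carry conditional tumour-driving alleles, among them floxed Lkb1 (Lkb1 fl/fl), so that adenoviral Cre given through the nose starts lung tumours. WTKL hosts received Tmem173 fl/fl marrow. LYZKL hosts received Tmem173 fl/fl;Lyz2-Cre marrow, in which Cre is driven from a myeloid gene and removes Tmem173, the gene of STING, from macrophages and other Lyz2-expressing cells. Cells positive for CD4 and for CD8 were sorted 8 weeks after Ad-Cre and captured with 10x 3' chemistry, 1 library per group. Tamoxifen is listed among the treatments of WTKL but is missing from the LYZKL label, so the donor genotype, tamoxifen and everything else that differs between 2 libraries cannot be told apart. The number and age of the mice behind each library are not given in the sources used here, hosts may keep some of their own T cells after irradiation, and no test between the groups is possible. Intervals below are 95% intervals of counting error only.

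Treg cells, held in their state by the transcription factor Foxp3, restrain other lymphocytes. In tissues a share of them takes on an effector state that is tied to repair. ST2, the receptor for the alarmin IL-33, is encoded by Il1rl1, and the growth factor amphiregulin, encoded by Areg, acts on epithelial cells through the EGF receptor. Klrg1 encodes an inhibitory lectin-like receptor of terminally differentiated lymphocytes, and Tnfrsf9 a costimulatory receptor of the TNF receptor family. In lung tumours such cells have been studied both as suppressors of antitumour immunity and as a source of tissue growth signals.

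The WTKL matrix held 77181312 UMIs in 12204 barcodes and the LYZKL matrix 93584629 in 13607, where the labels state 6609 and 7202 cells. A set of 100 barcode sequences occurs in both libraries, among them those of 1 WTKL and 5 LYZKL members. Members had a median of 5233 UMIs in WTKL and 6764 in LYZKL, other Foxp3 cells 4231.5 and 5361.5. Because depth differed in this way, shares of cells are also given after thinning each cell to 2000 UMIs, which left out 7 and 6 members. The targeted gene, Tmem173, was at 35.5 CPM (UMIs of a gene per 1000000 UMIs of the class) in the 474 WTKL cells with at least 3 Lyz2 UMIs and no Cd3 and at 24.8 CPM in the 746 such LYZKL cells. Whether the 3' tags lie within the deleted part was not checked, so this does not test the label.

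The label of the cells was checked against genes that the rule did not use. Ctla4, the inhibitory receptor that Treg cells carry at high level, was at 2969 CPM in WTKL members and 3076 in LYZKL members and was found in 95.2% of both at 2000 UMIs. It was also found in 67.7% and 71.7% of Foxp3-negative CD4 T cells and 48.5% and 62.6% of Cd8a T cells. Ikzf2, which encodes the Treg factor Helios, was found in 77.8% and 72.2% of members, in 31.9% and 36.3% of other Foxp3 cells, and in 9.17% and 5.02% of Foxp3-negative CD4 T cells. Il2ra, the IL-2 receptor alpha chain CD25, was found in 47.6% and 54.8% of members and in 418 of 4210 and 450 of 4087 Foxp3-negative CD4 T cells. No Cd4 UMI was counted in 132 WTKL and 145 LYZKL members. A single Foxp3 UMI was the evidence for 147 and 133 members. Of the 92 WTKL and 94 LYZKL other Foxp3 cells, only 36 and 43 had 2 or more Foxp3 UMIs. Foxp3 UMIs were seen in 65 of 2424 WTKL T cells with Cd8a (2.68%) and 84 of 3318 LYZKL T cells with Cd8a (2.53%), at a median of 6928.5 and 5593.5 UMIs. In Lyz2 cells without Cd3 the shares were 0.633% and 0.670%, at medians of 8049 and 6756.5 UMIs, against 9.28% and 11.3% of CD4-type T cells, whose medians were 4846 and 6124.

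RNA of other cell types was present in members. The 13 macrophage and monocyte markers summed to 726 CPM in WTKL members and 589 in LYZKL members, against 799 and 566 in Foxp3-negative CD4 T cells, and none was at 0. The 11 neutrophil markers summed to 1282 and 1007 CPM, and the 10 dendritic cell markers to 1270 and 616, with Clec9a and Siglech at 0 in both libraries. Of the 8 B cell markers, Ighm made up nearly all of the sum of 392 and 352 CPM, with Cd79a at 0 by the rule. The 9 epithelial markers summed to 59.9 and 29.1 CPM. Erythroid and fibroblast markers were at or under 1.93 CPM in sum. The part of this RNA in the results was not tested beyond the values given beside each.

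Tnfrsf9 was the most widespread of the 4 rule genes. It was found in 85.9% of WTKL members and 88.8% of LYZKL members, Areg in 68.5% and 68.3%, Il1rl1 in 43.1% and 34.6%, and Klrg1 in 30.1% and 22.7%. These values chose the cells and are given as a description. Only 1 effector UMI put 51 WTKL members (9.98%) and 60 LYZKL members (9.60%) inside the threshold, while 356 (69.7%) and 470 (75.2%) had 5 or more. The cells just outside, the other Foxp3 cells, had 0 by definition. Of the 4 genes, exactly 1 was found in 138 and 186 members, 2 in 174 and 233, 3 in 119 and 136, and all 4 in 80 and 70. Tnfrsf9 alone admitted 85 (16.6%) and 123 (19.7%) members. Il1rl1 or Areg, the genes of ST2 and amphiregulin, were carried by 413 (80.8%) and 487 (77.9%). The remaining members had Tnfrsf9, Klrg1 or both. Tnfrsf9 was also found outside Foxp3 cells, in 25.9% of WTKL and 32.3% of LYZKL T cells with Cd8a. In Lyz2 cells without Cd3 it was found in 10.97% and 14.5%. How specific Tnfrsf9 is for effector Treg cells among the members it alone admitted was not tested.

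Areg transcripts were concentrated in few cells. The level was 744 CPM in WTKL members and 835 in LYZKL members, and the 10% of members with most Areg held 52.0% and 51.5% of it, with up to 123 and 194 UMIs in a cell. The same shares were 53.0% and 58.8% for Il1rl1, 65.3% and 74.3% for Klrg1, and 39.9% and 37.9% for Tnfrsf9. Among cells with any Areg the median was 4 and 6 UMIs. In T cells with Cd8a, Areg was found in 7.38% and 8.59%, and in Lyz2 cells without Cd3 in 6.12% and 2.55%. Foxp3-negative CD4 T cells had Areg at 120 and 158 CPM, in 753 of 4275 WTKL cells and 989 of 4124 LYZKL cells.

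At 2000 UMIs the 4 genes, whose values chose the members, stood as follows, given as a description. Il1rl1 was found in 27.2% of WTKL members and 20.4% of LYZKL members, and Klrg1 in 16.5% and 8.72%. Areg was found in 48.6% and 48.8%, and Tnfrsf9 in 64.1% and 64.9%. In CPM, Il1rl1 was at 237 in WTKL and 157 in LYZKL members, Klrg1 at 107 and 62.9, and Tnfrsf9 at 804 and 790. Among Cd8a T cells without Foxp3, which the rule did not choose, Klrg1 was found in 4.46% and 0.285% at 2000 UMIs.

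**Figure D1:**
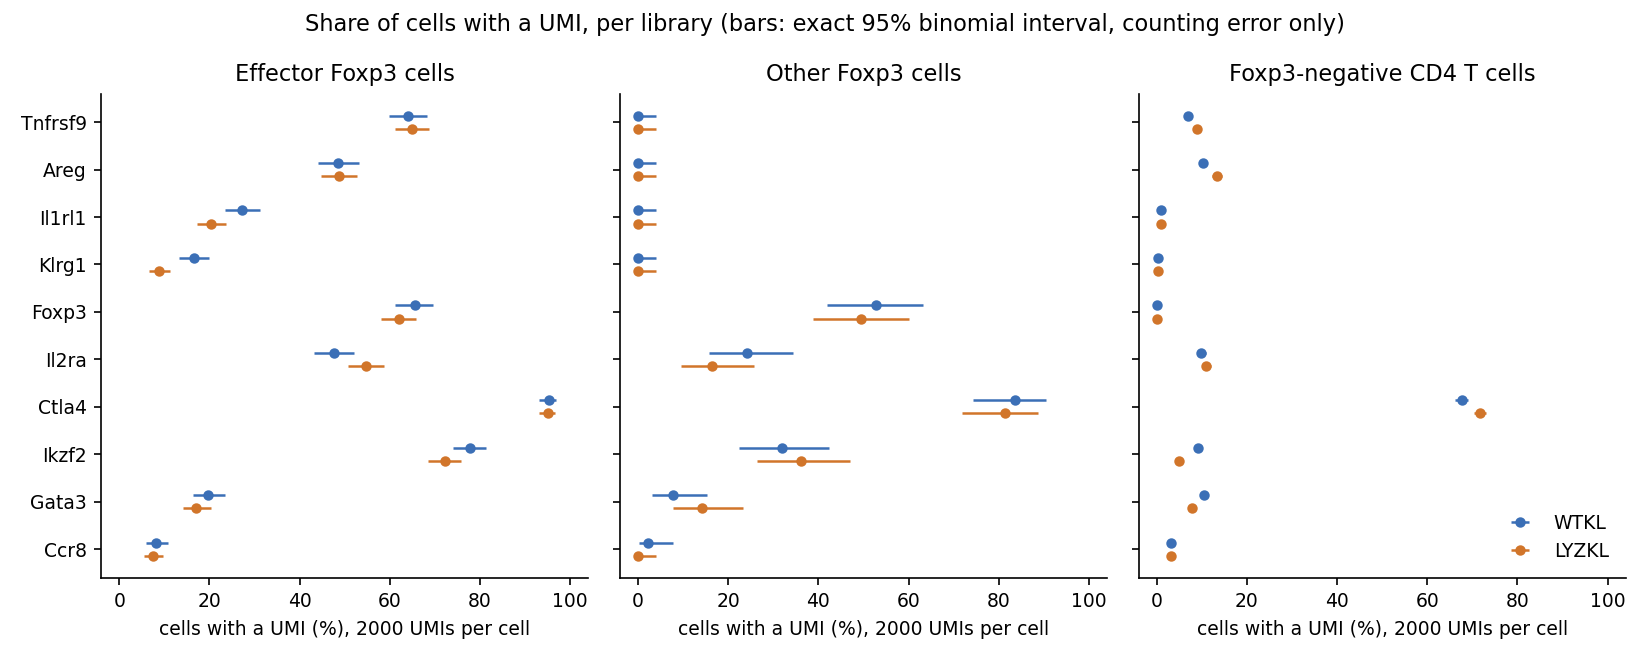
Share of cells with at least 1 UMI (horizontal axis, %, after thinning to 2000 UMIs per cell) for the 4 rule genes and 6 Treg genes in effector Foxp3 cells, other Foxp3 cells and Foxp3-negative CD4 T cells of the WTKL and LYZKL libraries; bars are exact 95% binomial intervals. The 4 rule genes chose the members and are at 0 in other Foxp3 cells by definition. Foxp3, shown among the Treg genes, chose both Foxp3 classes and is at 0 in Foxp3-negative CD4 T cells by definition. Ctla4 is at 95.2% in members of both libraries.

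Effector cells made up most Foxp3 cells in both libraries. They were 84.7% (81.6 to 87.5) of 603 Foxp3 cells in WTKL and 86.9% (84.2 to 89.3) of 719 in LYZKL, a ratio of 1.03 (0.981 to 1.07), and 76.2% and 79.3% after thinning. Of all CD4-type T cells, those with Cd3 and neither Cd8a nor Cd79a, members were 7.87% (7.22 to 8.55) in WTKL and 9.82% (9.10 to 10.6) in LYZKL, a ratio of 1.25 (1.12 to 1.40). After thinning the shares were 4.57% and 5.49%, and the interval of their ratio was 1.03 to 1.40. The sort for CD4 and CD8 sets which cells entered the denominator, and the proportions in which sorted cells were pooled are not stated, so these shares describe the libraries.

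Compared with other Foxp3 cells, effector cells had more RNA of costimulatory TNF receptors, of the integrin that frees active TGF-beta, of granzyme B and of enkephalin, and less RNA of genes of resting T cells. Of 4810 genes with at least 30 CPM, 282 were at least 1.5-fold higher in effector cells in both libraries (5.86%) and 138 at least 1.5-fold lower (2.87%). A deeper cell is more likely to show 1 of the 4 effector genes, and members were deeper in both libraries. With each cell at 2000 UMIs, 361 genes were higher and 90 lower.

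Receptors of the TNF family were among the named genes. Tnfrsf4, which encodes the costimulatory receptor OX40, was at 775 CPM in members and 177 CPM in other Foxp3 cells in WTKL, and at 984 and 240 in LYZKL, log2 ratios of 2.13 (1.81 to 2.48) and 2.04 (1.81 to 2.27). Tnfrsf8, the receptor CD30, was at 74.0 and 11.3 CPM in WTKL and at 94.3 and 22.3 in LYZKL. Tnfrsf18, the receptor GITR, was at 484 against 122 and at 479 against 153 CPM. Over the 20 genes of the TNF receptor and NF-kB list, 20 were higher in WTKL and 19 in LYZKL, where 57.8% and 54.6% of all measured genes were higher. The medians of this list were 0.67 and 0.73 on the log2 scale, against 0.13 and 0.05 over all genes. Tnfrsf9, which chose the cells, was left out of these counts and medians.

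The integrin subunits that together activate latent TGF-beta were both higher in members. Itgav, the alpha-v chain, was at 493 CPM in members and 129 in other Foxp3 cells in WTKL, and at 577 and 132 in LYZKL, log2 ratios of 1.93 (1.55 to 2.34) and 2.12 (1.82 to 2.44). Itgb8, the beta-8 chain, was at 140 and 24.9 CPM in WTKL and at 105 and 29.8 in LYZKL, log2 ratios of 2.49 (1.64 to 3.50) and 1.81 (1.17 to 2.54). Itgb8 was near 5.88 and 4.73 CPM in Foxp3-negative CD4 T cells. Tgfb1, the cytokine, was at 208 against 104 and at 199 against 107 CPM.

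Among secreted effectors, Penk, which encodes the opioid precursor proenkephalin, was at 240 CPM in WTKL members and 205 in LYZKL members. In other Foxp3 cells it rested on 3 UMIs in WTKL and 20 in LYZKL, and the log2 ratios were 5.14 (3.59 to 7.42) and 2.78 (2.15 to 3.50). Foxp3-negative CD4 T cells had Penk at 104 CPM in WTKL and at 221 in LYZKL, there above the level of members. Gzmb, granzyme B, was at 206 and 27.2 CPM in WTKL and at 315 and 55.1 in LYZKL. Il10, the suppressive cytokine, was at 84.7 and 4.53 CPM in WTKL and at 123 and 43.2 in LYZKL. Its values in other Foxp3 cells rested on 2 UMIs in 2 WTKL cells and 29 in 13 LYZKL cells. Other named genes that were higher in members of both libraries were Alcam, an adhesion molecule, Irf8, a transcription factor of the interferon regulatory family, Gem, a small GTPase, Tent5a, a noncanonical poly(A) polymerase, and Frmd5, a protein with a FERM domain.

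Genes of the resting and central Treg list were mostly lower in members than in other Foxp3 cells. Tcf7, a factor of naive and memory T cells, was at 79.5 CPM in members and 369 in other Foxp3 cells in WTKL, and at 71.9 and 251 in LYZKL, log2 ratios of -2.22 (-2.50 to -1.93) and -1.81 (-2.07 to -1.54). Bach2, a repressor of effector differentiation, was at 61.5 against 326 and at 58.6 against 211 CPM. Bcl2, the survival gene, was at 75.1 against 380 and at 90.2 against 290 CPM. In Foxp3-negative CD4 T cells of WTKL and LYZKL, Tcf7 was at 374 and 287 CPM, Bach2 at 148 and 112.5, and Bcl2 at 295 and 271. Whether the other Foxp3 cells include CD4 T cells that are not Treg cells was not tested. Of 18 genes of the resting list, 16 in WTKL and 13 in LYZKL were at least 1.5-fold lower, where 13.4% and 11.6% of all genes were. Other named genes lower in members included Igfbp4, an IGF binding protein, Ly6c1, a surface antigen of central T cells, Klf3, a Kruppel-like repressor, Pik3ip1, an inhibitor of PI3 kinase, the sialyltransferases St8sia1 and St8sia6, Ehd3 and Nsg2, which act in membrane traffic, and Pde3b, a phosphodiesterase.

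**Figure D2:**
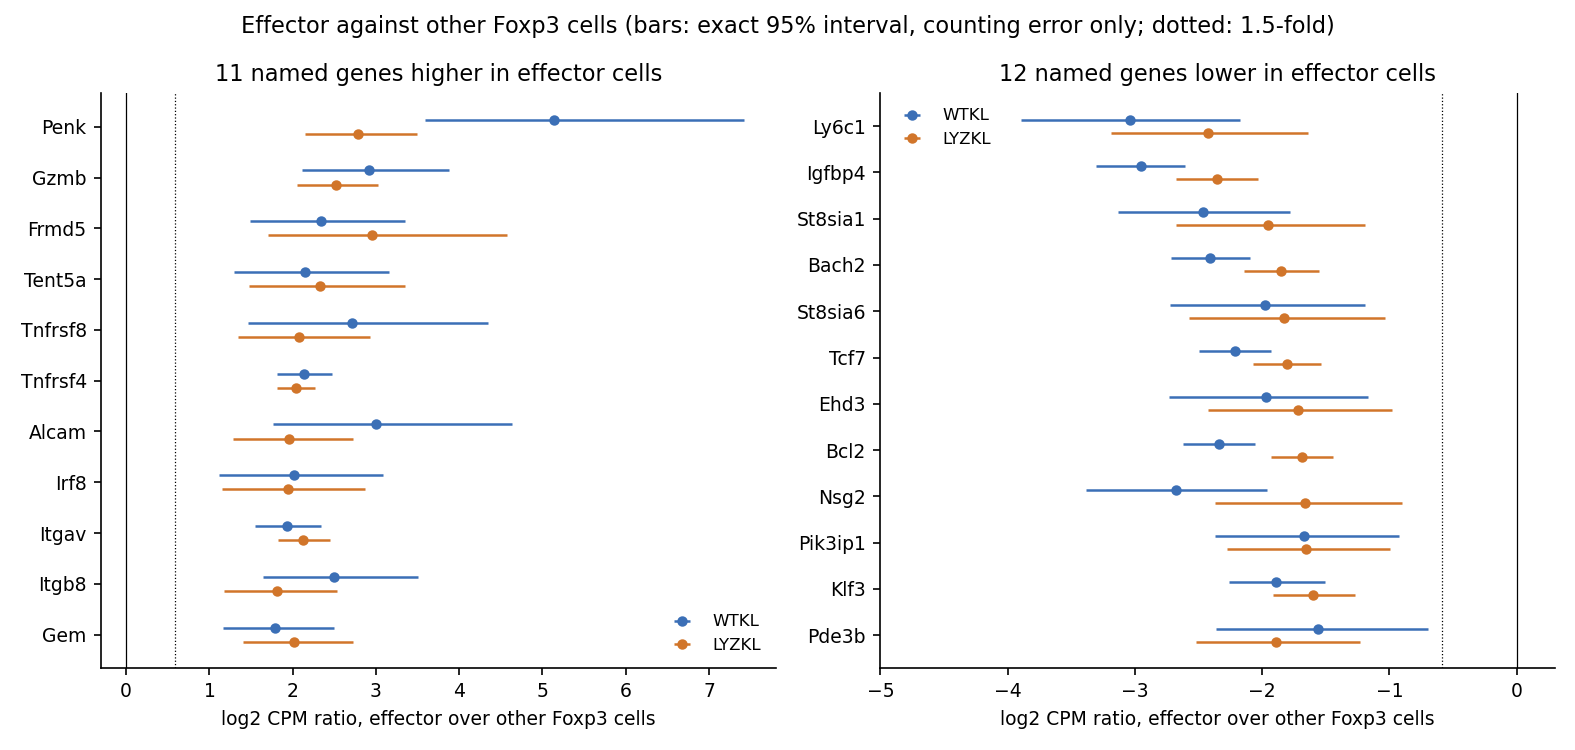
Log2 ratio of CPM, effector over other Foxp3 cells (horizontal axes), for 11 of the named genes higher (left) and the 12 lower (right) in effector cells, with exact 95% intervals of counting error, for WTKL and LYZKL. All genes shown lie on the same side of 0 in both libraries, with Penk and Ly6c1 having wide intervals as few UMIs were counted.

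The tissue and repair list, without the 4 rule genes, was mostly higher in members. Of its 37 measured genes 33 were higher in WTKL and, of 36, 29 in LYZKL, with 25 and 21 at least 1.5-fold higher, where 23.7% and 14.3% of all genes were. Its medians were 0.99 and 0.65. Gata3, a factor of type 2 and tissue Treg cells, was at 108 CPM in members and 40.8 in other Foxp3 cells in WTKL and at 86.5 and 55.1 in LYZKL. Ccr8, a chemokine receptor of tumour Treg cells, was at 45.5 and 15.9 CPM in WTKL and at 38.2 and 4.46 in LYZKL. Its values in other Foxp3 cells rested on 7 UMIs in 5 WTKL cells and 3 in 2 LYZKL cells. Rora, a nuclear receptor of tissue lymphocytes, was at 503 against 294 and at 420 against 317 CPM. Ebi3, a subunit of the suppressive cytokine IL-35, was at 42.8 against 4.53 and at 32.1 against 10.4 CPM. Ifng, the type 1 cytokine, was lower in members, at 10.2 against 102 CPM in WTKL and at 15.1 against 32.7 in LYZKL. The values of other Foxp3 cells rested on 45 Ifng UMIs in 5 WTKL cells and 22 in 8 LYZKL cells.

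Cell cycle genes differed between the libraries in this comparison. In WTKL 29 of 30 were higher in members, with a median of 1.80, and in LYZKL 22 of 31, with a median of 0.25. In the 94 other Foxp3 cells of LYZKL these genes stood higher than in the 92 of WTKL, with a median log2 ratio of 1.98, and the deepest of those cells held 54416 UMIs. After cells with a UMI of Mki67 or Top2a, markers of dividing cells, were left out, the medians were -0.16 and -0.08. Mki67 was found in 13.5% of WTKL members and 18.1% of LYZKL members at 2000 UMIs, a ratio of 1.34 (1.02 to 1.77).

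Members were also split by each rule gene, and genes that differed in the same direction in both libraries are described below, picked after their values were seen. Lists could go opposite ways: in the split by Areg the type I interferon median was 0.21 in WTKL and -0.31 in LYZKL. Splitting by Il1rl1 left 220 cells with it and 291 without in WTKL and 216 and 409 in LYZKL, at median UMIs of 5559 and 4852 and of 6645 and 6827. Il2ra was at 709 CPM with Il1rl1 and 360 without it in WTKL and at 876 and 513 in LYZKL. Gata3 was at 142 against 81.3 and at 128 against 64.9 CPM, and Fgl2, a secreted suppressive factor, at 278 against 135 and at 239 against 122. Ky, a protein best known from muscle, was at 39.8 against 14.4 and at 31.1 against 9.73 CPM. Tcf7 was lower with Il1rl1, at 50.4 against 103 and at 43.5 against 86.8 CPM, and Bach2 likewise, at 36.7 against 81.3 and at 29.0 against 74.1.

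Members with Klrg1, 154 in WTKL and 142 in LYZKL, were deeper than those without it, with medians of 5855 against 4788 and 8060.5 against 6427 UMIs. They had more Mt2, a metallothionein that binds zinc, at 64.9 against 23.0 CPM in WTKL and 103 against 33.7 in LYZKL, and more Mt1, at 212 against 102 and 317 against 148. Fgl2 and Ky were higher in them as well. P2rx7, the ATP-gated channel P2X7 through which extracellular ATP or NAD can kill T cells, was lower with Klrg1, at 14.6 against 55.2 CPM and at 17.6 against 38.0. Bach2 was lower with Klrg1 as well, at 38.1 against 73.6 and at 12.0 against 74.3 CPM.

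Members with Areg, 350 and 427, had more RNA of genes of dividing cells. Of 31 cell cycle genes 29 in WTKL and 27 in LYZKL were higher with Areg, with medians of 0.98 and 0.45, and 21 and 9 were at least 1.5-fold higher, where 8.34% and 4.95% of all genes were. In the split by Tnfrsf9 the medians of these genes were 0.13 in WTKL and 1.04 in LYZKL. Tyms, thymidylate synthase, was at 60.5 against 20.1 CPM and at 61.8 against 29.6. Bcl2 was lower with Areg, at 60.1 against 117 and 76.9 against 124 CPM. Median UMIs were 5521 with and 4523 without Areg in WTKL and 7050 and 5901.5 in LYZKL, and the part of depth in these differences was not tested.

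Members with Tnfrsf9, 439 and 555, had higher CPM of Penk, Lag3 and Itgb8 than members without it. Penk was at 267 against 55.2 CPM in WTKL and 225 against 7.49 in LYZKL. Lag3, an inhibitory receptor, was at 114 against 28.7 and 146 against 33.7, Itgb8 at 155 against 39.7 and 113 against 22.5, and Ccr8 at 51.1 against 6.62 and 41.0 against 11.2. Only 72 and 70 members lacked Tnfrsf9, and these were admitted by Areg, Il1rl1 or Klrg1. Median UMIs were 5394 with and 4176.5 without Tnfrsf9 in WTKL and 6877 and 6490.5 in LYZKL. Ms4a4b, a membrane protein of naive T cells, was at 184 against 371 and 182 against 388 CPM.

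Between the libraries, effector cells of LYZKL had more RNA of interferon-induced GTPases and of Tmem173 itself and less of Tox, Cxcr6, Nrp1, Rgs16 and Pcsk1. Among 5056 genes that reached 30 CPM in either library, 49 were at least 1.5-fold higher in LYZKL members (0.969%) and 97 at least 1.5-fold lower (1.92%). Under edgeR's TMM scaling the counts were 81 higher and 73 lower, so the balance of the directions rests on the scaling, which moved the log2 ratios by 0.057.

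Many of the genes with the largest ratios came from few cells or belong to other cell types. Ccl1, a chemokine, was at 5.80 CPM in WTKL members and 75.5 in LYZKL members, but 1 cell held 96.2% of the LYZKL UMIs. Among the 12 named higher genes, Slpi, Saa3, Cfb, Retnlg and Wfdc21 are best known from epithelial or myeloid cells, and these and Ly6i were higher in Foxp3-negative CD4 T cells than in members in WTKL. A single cell held between 12.1% and 46.6% of the LYZKL UMIs of these 6 genes. Among the 12 lower genes, C1qa and C1qb are complement genes of macrophages, H2-Eb1 is an MHC class II gene of antigen-presenting cells, and G0s2, Basp1, Cstdc4 and Ifitm1 also rested on few cells, at most 57 in WTKL. C1qa was at 38.6 CPM in WTKL members, from 10 cells, and at 1.78 in LYZKL members, from 5 cells. H2-Eb1 was at 325 and 121 CPM, and its log2 ratio was 0.33 once cells above 10000 UMIs were left out.

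Other named genes are as follows. Pcsk1, a prohormone convertase of neuroendocrine cells, was at 57.4 CPM in 76 WTKL members and at 11.5 CPM in 34 LYZKL members, a log2 ratio of -2.31 (-2.74 to -1.91). No Pcsk1 UMI was counted in other Foxp3 cells, and in Foxp3-negative CD4 T cells it was at 12.9 and 6.30 CPM. Nrn1, neuritin, was at 62.4 and 23.8 CPM, Nav2, a neuron navigator protein, at 75.9 and 28.1, and Nckap5 at 50.5 and 16.9. Without cells that held a UMI of 6 genes of other lineages, the log2 ratios were -1.72 for Pcsk1, -0.92 for Nav2, -0.70 for Nckap5 and -0.036 for Nrn1. Gzma, granzyme A, was at 30.4 and 10.3 CPM. Higher in LYZKL members were Adarb1, an RNA-editing deaminase, at 20.7 and 39.8 CPM, Ust, a sulfotransferase, at 29.0 and 51.5, and Arl14ep at 20.1 and 35.7. Without cells holding UMIs of other lineages, Adarb1 had a log2 ratio of -0.30 and Ust one of 1.08.

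Tmem173, the gene deleted in the Lyz2 lineage, was higher in effector cells of LYZKL. It was at 32.8 CPM in WTKL members and 75.6 in LYZKL members, 2.30-fold, with an interval of 0.91 to 1.51 on the log2 scale, in 94 and 255 cells. At 2000 UMIs it was found in 5.95% (4.05 to 8.39) and 17.1% (14.2 to 20.3) of members. In other Foxp3 cells it was at 18.1 CPM in WTKL, from 8 UMIs, and at 75.9 in LYZKL. It was at 24.0 and 47.0 CPM in Foxp3-negative CD4 T cells, but at 38.7 and 33.9 in Cd8a T cells without Foxp3. Without cells that held a UMI of 6 genes of other lineages, the members' values were 36.2 and 90.7 CPM. Of 14 measured genes of the STING pathway 13 were higher in LYZKL members, where 45.5% of all genes were, but the list's median was 0.17, and Tbk1, the kinase that STING activates, was at 64.3 and 65.3 CPM.

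Interferon-response genes were higher as a group in LYZKL members. Of 28 measured genes of the interferon gamma list 25 were higher and 7 at least 1.5-fold higher, where 2.26% of all genes were, and none was 1.5-fold lower, where 5.17% of all genes were. The median log2 ratio was 0.44, against -0.03 over 9587 genes. Of 23 type I interferon genes 20 were higher and 3 at least 1.5-fold higher, with a median of 0.30. In Foxp3-negative CD4 T cells the medians of these lists were 0.34 and 0.31, so the ratios there were of a like size, and whether they differ between the classes was not tested.

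GTPases that attack intracellular parasites were among the higher genes of the interferon gamma list. Iigp1, an immunity-related GTPase, was at 108 CPM in WTKL members and 224 in LYZKL members, a log2 ratio of 1.05 (0.88 to 1.21). It was found in 12.5% (9.74 to 15.7) and 28.1% (24.6 to 31.8) of them at 2000 UMIs. The shares went the other way in Cd8a T cells without Foxp3, 7.29% and 4.37%. Among guanylate-binding proteins, Gbp5 was at 82.5 and 139 CPM, Gbp3 at 116 and 191, and Gbp2 at 127 and 200, log2 ratios of 0.75, 0.72 and 0.65. Igtp, a related GTPase, was at 152 and 228 CPM.

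A transcription factor and antigen-processing genes of the same list were higher by less. Irf1, a transcription factor induced by interferon, was at 341 and 427 CPM, Tap1, the peptide transporter, at 172 and 234, and Psmb8, an immunoproteasome subunit, at 423 and 544. The receptor chains were the other way: Ifngr1 was at 792 and 694 CPM and Ifngr2 at 43.3 and 31.4. Irf8 was at 91.3 and 74.4. Cxcl9, a chemokine, had the largest ratio, but 1 cell held 69.6% of its LYZKL UMIs. Of the type I list, Ifi27l2a was at 575 and 858 CPM, Zbp1, a sensor of nucleic acids, at 74.8 and 112, and Isg15, a ubiquitin-like modifier, at 67.3 and 91.5. Ifit2 and Usp18, both induced by type I interferon, were at 16.8 and 16.9 CPM and at 5.80 and 5.68.

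The difference was spread over cells. At 2000 UMIs a WTKL member held a median of 8 UMIs of the interferon gamma list (quartiles 5 and 12, 504 cells) and a LYZKL member 11 (quartiles 7 and 16, 619 cells). Foxp3-negative CD4 T cells held a median of 6 in both libraries, and other Foxp3 cells 8 and 9. For the type I list the medians were 2 and 3 in members. With cells above 10000 UMIs left out, the list medians were 0.69 and 0.54 on the log2 scale. Without cells holding UMIs of other lineages they were 0.50 and 0.66, and Iigp1 was at 72.4 and 247 CPM. Ifng itself was low in members, at 10.2 and 15.1 CPM, and was found in 9.31% and 13.5% of Foxp3-negative CD4 T cells and in 24.6% and 34.5% of Cd8a T cells without Foxp3 at 2000 UMIs.

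**Figure D3:**
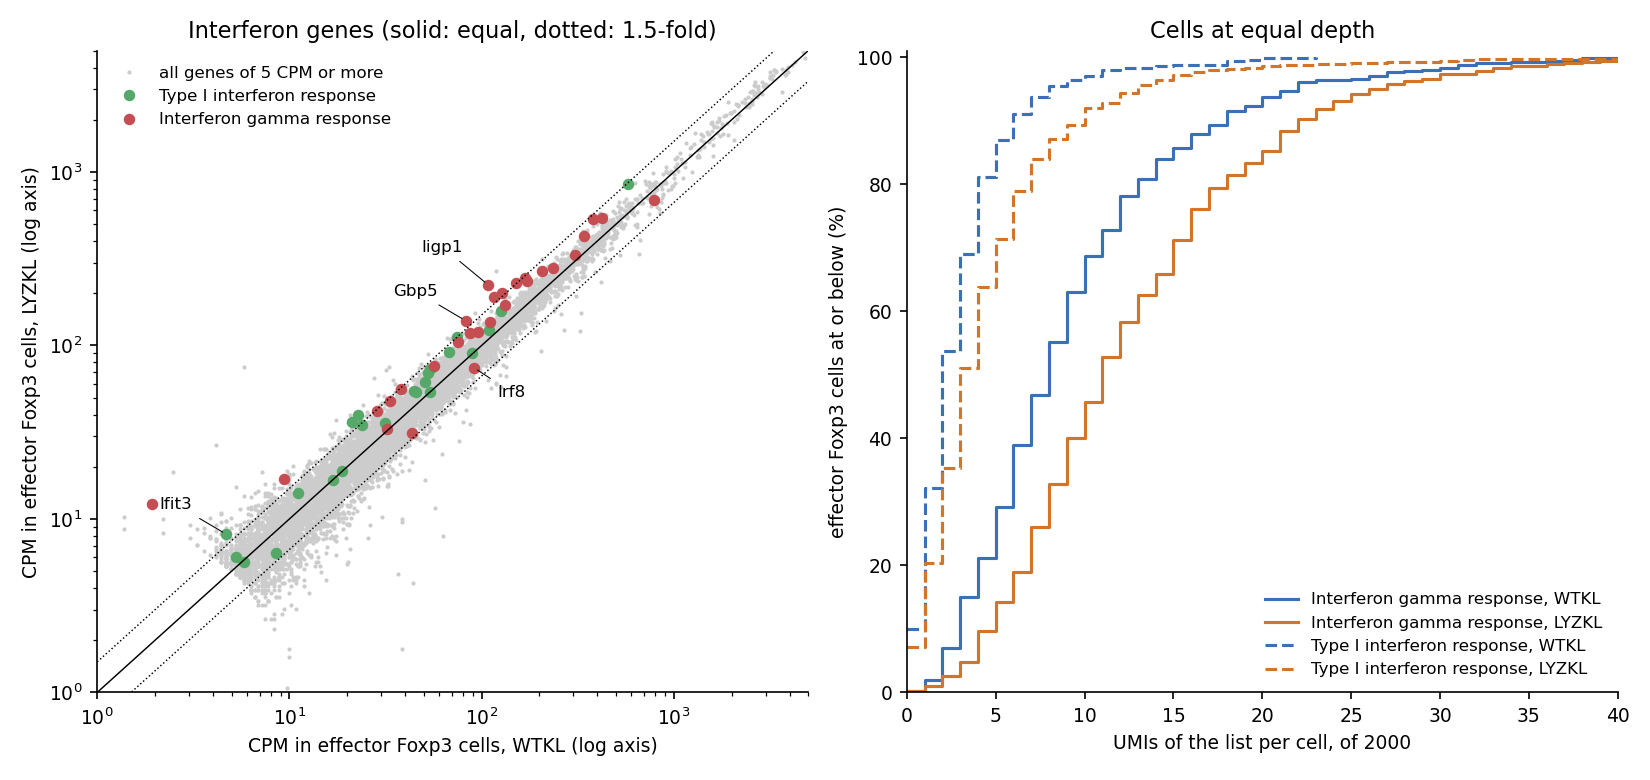
Left, CPM in WTKL (horizontal) and LYZKL (vertical) effector Foxp3 cells on log axes for all genes (grey) and the 2 interferon lists (red, interferon gamma; green, type I), with lines of equality and of 1.5-fold. Right, cumulative percent of effector Foxp3 cells (vertical) by UMIs of each list per cell at 2000 UMIs (horizontal); the LYZKL interferon gamma curve lies to the right of the WTKL curve, with medians of 11 and 8 UMIs.

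Promoter sequence was compared because most of these genes were higher together. In RefSeq windows on GRCm38.p6, from 250 bases before to 50 bases after the start, the interferon-stimulated response element was searched as TTTCNNTTTC, or GAAANNGAAA on the other strand. It was present in 11 of 21 interferon gamma genes with a window (52.4%) and 14 of 22 type I genes (63.6%), against 1079 of 27025 genes (3.99%). The gamma-activated site TTCNNNGAA was present in 9 of 21 (42.9%) and 4 of 22 (18.2%), against 2582 of all genes (9.55%). These lists were defined by interferon response, so the matches describe the genes. The following stretches upstream of the start, each 60 bases read 5′ to 3′ on the gene's strand, show the element in capitals in 4 GTPase genes of the interferon gamma list and in Isg15 of the type I list. Gbp3 held 2 overlapping copies and Isg15 3. Iigp1 had no entry in the promoter table.
Gbp2, chr3:142620569-142620628, plus strand: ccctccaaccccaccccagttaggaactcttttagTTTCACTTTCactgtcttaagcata
Gbp3, chr3:142559970-142560029, plus strand: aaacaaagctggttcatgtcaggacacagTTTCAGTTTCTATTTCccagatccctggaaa
Gbp5, chr3:142496734-142496793, plus strand: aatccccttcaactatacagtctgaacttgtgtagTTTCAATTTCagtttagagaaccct
Igtp, chr11:58199487-58199546, plus strand: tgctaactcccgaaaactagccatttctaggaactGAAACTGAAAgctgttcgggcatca
Isg15, chr4:156200860-156200919, minus strand: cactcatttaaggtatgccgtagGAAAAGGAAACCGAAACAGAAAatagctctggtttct

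Among Treg identity genes most levels were close between the libraries. Of 21 measured genes 13 were higher in LYZKL members, with a median of 0.05. Foxp3, which chose the cells and was left out of this count and median, was at 418 CPM in WTKL and 436 in LYZKL members. Icos, a costimulatory receptor, was at 880 and 869. Il2ra was at 514 and 638 CPM, a log2 ratio of 0.31 (0.23 to 0.39), which was -0.038 without cells holding UMIs of other lineages. Tnfrsf4 was at 775 and 984, a log2 ratio of 0.34, and of 0.64 in Foxp3-negative CD4 T cells. Ikzf2 was lower, at 990 and 833, a log2 ratio of -0.25, and of -0.87 in Foxp3-negative CD4 T cells. Nrp1, neuropilin-1, a receptor that marks thymus-derived Treg cells, was at 134 and 75.6 CPM, a log2 ratio of -0.83 (-1.02 to -0.64), and in 24.6% and 14.4% of members at 2000 UMIs. In Foxp3-negative CD4 T cells the log2 ratio of Nrp1 was -0.91. Cd8a T cells without Foxp3 went the other way, with Nrp1 in 6.22% and 13.1% at 2000 UMIs.

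Of the tissue and repair list 15 of 37 genes were higher in LYZKL members, near the 45.5% of all genes, with a median of -0.13. At least 1.5-fold lower were 2 of 37, also near the share of all genes, 5.17%. Cxcr6, a chemokine receptor of tissue-resident T cells, was at 118 CPM in WTKL members and 60.6 in LYZKL members, a log2 ratio of -0.97 (-1.18 to -0.76). At 2000 UMIs it was found in 17.3% and 7.92% of members and 37.0% and 28.8% of Foxp3-negative CD4 T cells. The shares went the other way in Cd8a T cells without Foxp3, 24.5% and 42.1%. Gata3 was at 108 and 86.5 CPM, Ccr8 at 45.5 and 38.2, and Itgb8 at 140 and 105. Batf, a factor of tissue Treg cells, was at 346 and 316 CPM. Rora was at 503 and 420 CPM, with a log2 ratio of 0.053 without cells holding UMIs of other lineages. Il10 was higher, at 84.7 and 123 CPM, a log2 ratio of 0.54 (0.35 to 0.74), and 1 cell held 13.4% of its LYZKL UMIs. However, its share of members at 2000 UMIs, 10.1% and 12.3%, had a ratio of 1.21 (0.868 to 1.70). In Foxp3-negative CD4 T cells the log2 ratio of Il10 was 0.75 (0.57 to 0.92). Vim, vimentin, was at 1905 and 2529 CPM.

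Checkpoint genes differed in both directions. Tox, a factor of chronically stimulated T cells, was at 416 CPM in WTKL members and 233 in LYZKL members, a log2 ratio of -0.83 (-0.94 to -0.73), and in 54.0% and 36.2% of members at 2000 UMIs. Tox was found in 23.8% and 12.7% of Foxp3-negative CD4 T cells, with a log2 ratio of CPM of -0.96. The shares went the other way in Cd8a T cells without Foxp3, 17.1% and 29.6%. Pdcd1, the receptor PD-1, was at 115 and 82.4 CPM, while in Foxp3-negative CD4 T cells its log2 ratio was 0.29. Rgs16, a regulator of G protein signalling, was at 133 and 66.8 CPM in members, while in Foxp3-negative CD4 T cells its log2 ratio was 0.20. Gzmb was higher, at 206 and 315 CPM, a log2 ratio of 0.61 (0.49 to 0.74), and in 17.3% and 25.4% of members at 2000 UMIs. In Foxp3-negative CD4 T cells the log2 ratio of Gzmb was -0.15. Lag3 was at 103 and 135 CPM and Cd274, the ligand PD-L1, at 95.5 and 134.

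Most immediate early genes were lower in LYZKL members. Of 21 genes of the immediate early and heat shock list 2 were higher, with a median of -0.29, where 45.5% of all genes were higher. Of 17 genes of T cell receptor activation 6 were higher, not far from that share, with a median of -0.23. Egr1 was at 119 and 59.7 CPM, Nr4a2 at 111 and 56.8, and Nr4a1, which reports receptor signalling, at 390 and 264. In Foxp3-negative CD4 T cells the medians were -0.14 and -0.21. Ccr7 was at 52.4 and 89.3 CPM in members, while Tcf7 was at 79.5 and 71.9.

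**Figure D4:**
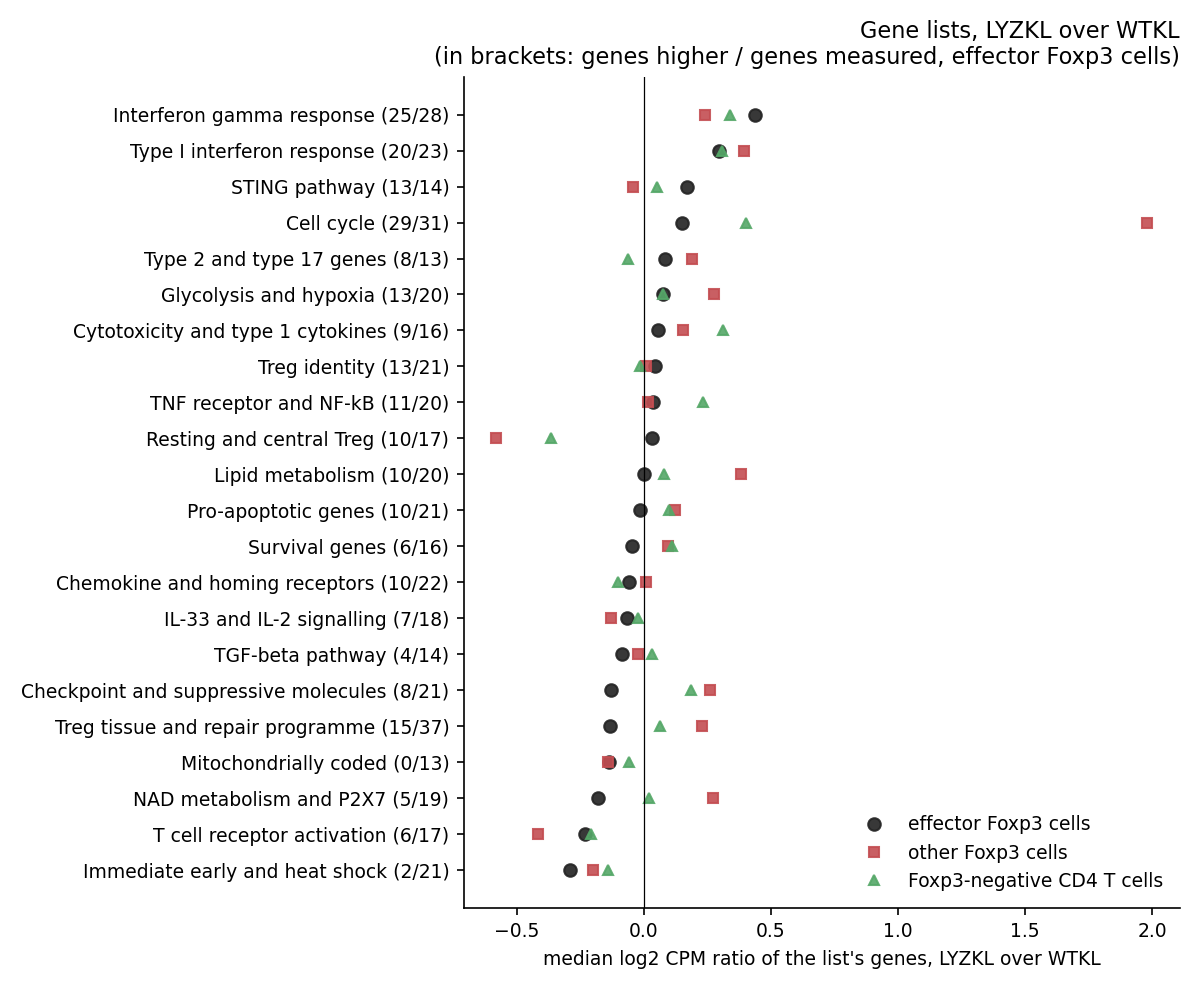
Median log2 ratio of CPM, LYZKL over WTKL (horizontal axis), for each gene list in effector Foxp3 cells (circles), other Foxp3 cells (squares) and Foxp3-negative CD4 T cells (triangles), with the number of genes higher and measured in effector cells in brackets. The interferon gamma list has the highest median in effector cells, 0.44, and the immediate early and heat shock list the lowest, -0.29.

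The title of the study names a STING and CD38 axis in macrophages and the survival of Treg cells, so genes of NAD metabolism, P2X7 and apoptosis were examined. Of 19 measured genes of NAD metabolism and P2X7 signalling 5 were higher in LYZKL members, where 45.5% of all genes were, with a median of -0.18, and in Foxp3-negative CD4 T cells 10 of 17, with a median of 0.02. Art2b, the ADP-ribosyltransferase that uses NAD to open P2X7, was at 14.4 CPM in WTKL members and 5.33 in LYZKL members, a log2 ratio of -1.43 (-2.13 to -0.75). The log2 ratio of Art2b was -2.23 in Foxp3-negative CD4 T cells, and in other Foxp3 cells it had 10 UMIs in WTKL and 0 in LYZKL. P2rx7 was at 41.4 and 32.9 CPM, a log2 ratio of -0.33 (-0.65 to -0.01), and -0.53 in Foxp3-negative CD4 T cells. Cd38, the NAD-consuming ectoenzyme, was at 36.4 and 28.9 CPM, a log2 ratio of -0.33 (-0.67 to 0.01). At 2000 UMIs Cd38 was found in 9.13% and 6.95% of members and P2rx7 in 9.72% and 6.46%, with intervals that overlap. Nt5e, the adenosine-forming ectoenzyme CD73, was at 187 and 158 CPM, with a log2 ratio of 0.10 without cells holding Mki67 or Top2a, and Entpd1, CD39, at 58.5 and 66.8.

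Survival and apoptosis lists had medians of -0.05 and -0.01, with 6 of 16 and 10 of 21 genes higher in LYZKL members, near the 45.5% of all genes. Bcl2 was at 75.1 and 90.2 CPM, a log2 ratio of 0.27 (0.05 to 0.48). Its log2 ratio was -0.39 (-0.70 to -0.08) in other Foxp3 cells and -0.12 (-0.17 to -0.08) in Foxp3-negative CD4 T cells. In members Mcl1, another protector, was at 309 and 293 CPM, and Bcl2l11, the gene of the killer protein BIM, at 30.6 and 28.2. Bbc3, which encodes PUMA, was at 30.1 and 18.3 CPM, and 1 cell held 17.4% of its WTKL UMIs. Casp4, an inflammatory caspase, was at 85.8 and 52.9 CPM. In Foxp3-negative CD4 T cells the log2 ratio of Casp4 was 0.24.

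Cell cycle genes leaned higher in LYZKL members, 29 of 31 with a median of 0.15, where 45.5% of all genes were higher. The median was 1.46 without cells holding UMIs of other lineages and 0.03 without cells holding Mki67 or Top2a. Of 30 such genes in Foxp3-negative CD4 T cells 25 were higher, with a median of 0.40. Mki67 was at 316 and 399 CPM, Ube2c, a mitotic ubiquitin enzyme, at 92.7 and 153, and Ccnb1, cyclin B1, at 21.0 and 36.8. The 13 mitochondrially coded genes were all lower in LYZKL members, with a median of -0.14 and a range from -0.36 to -0.02.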

How the data were processed

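Per the labels, T cells sorted from lung tumours were captured with 10x 3' chemistry, 1 library per group, with no replicate. The authors deposited raw UMI counts per gene and barcode, which were made with Cell Ranger 6.1.2 on mm10, per the submitters' processing notes. The matrices hold 32285 genes, and no barcode has under 500 UMIs. Doublet removal is not stated in the sources used here and doublets were kept. A caller (scanpy 1.11.5, Scrublet) marked 1 WTKL cell with its automatic threshold, so removal at a preset rate of 0.8% per 1000 cells was an alternative, which took 56 and 64 members.

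Counts were summed per library and class and divided by the class total (CPM). Ratios carry exact conditional binomial intervals, shares Clopper-Pearson intervals, and ratios of shares log-normal (Katz) intervals, all at 95% and for counting error only. With 1 library per group no test was made. A gene counted as different at 1.5-fold, and gene lists used genes with a mean of at least 5 CPM. To be named by size a gene needed 30 CPM and 10 cells in the higher group and 50 UMIs in all, and the 12 largest ratios each way are given, without receptor and immunoglobulin segments, ribosomal, mitochondrial and sex-linked genes and unnamed models; for effector against other cells both libraries had to pass. A further 30 genes are always given, and list members from 30 CPM serve as examples. Some items that these rules name are not reported here. List genes under 30 CPM, genes named for 1 cell and genes that tell groups of members apart were picked after their values were seen. Of the list and marker symbols, 4 are not in the matrix. The members and lists were chosen with earlier results of these data known. On simulated data for LYZKL over WTKL in members (4798 genes), 67 of 67 genes planted at 1.5-fold had the right direction and 61 of those intervals held the planted value. The simulated sums were Poisson draws without spread between cells or libraries, so they do not show how the intervals hold under such spread. Python 3.11.15, numpy 2.4.6, scipy 1.17.1, pandas 2.3.3, R 4.3.3 and edgeR 4.0.16 (TMM factors only) were used.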

Additional observations from a re-analysis of the deposited data

Results flagged for a closer look

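Sex-linked RNA lies outside the comparisons of the report. Among members with a UMI of Xist or of a Y-linked gene, but not both kinds, 18 WTKL cells (4.59%) carried Xist alone and 374 Y-linked RNA alone, and in LYZKL 17 cells (3.43%) carried Xist alone and 479 Y-linked RNA alone. The same share was 4.55% and 3.60% in Foxp3-negative CD4 T cells and 4.10% and 0.428% in Cd8a T cells without Foxp3. It drew attention because most cells of both libraries carried Y-linked RNA, and the labels used here do not give the sex of hosts or donors.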

How the results depend on the processing

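Of 2353 values of 176 results under 19 settings, 2107 lay within the interval of the reported value (counts within 1.5 times), 225 lay outside it and 21 changed sign although that interval leaves out 0. Changes of sign of values near 0 are not among these 21, and with them 139 values changed sign. The cause was not tested in any case. The interferon gamma, type I interferon, STING, cell cycle, immediate early, T cell receptor activation, NAD, mitochondrial and tissue medians of LYZKL over WTKL in members kept their sign in all 14 alternatives, while the medians of the other lists and of all genes changed sign in at least 1. The settings on Foxp3 UMIs, on cells above 10000 UMIs and on Mki67 and Top2a were chosen after seeing the data. No paired analysis was possible because each group holds 1 library, and for the same reason no library was left out.

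The counts of genes higher in LYZKL members (49) and lower (97) depended on scaling and filters. The higher count was 81 with TMM, 82 with totals without ribosomal protein and mitochondrial genes and 89 with per-cell means. With a 10 CPM minimum the counts were 142 and 315, and with none 195 and 397. Leaving out cells with UMIs of 6 other-lineage genes, which left 139 and 201 members, gave 309 and 311. Leaving out cells above 10000 UMIs gave 124 higher, and leaving out cells with Mki67 or Top2a gave 109 and 193. For effector against other Foxp3 cells (282 and 138) the higher count was 478 at 10 CPM, 484 with no minimum and 443 at 2 Foxp3 UMIs. The lower count was 53 without other-lineage UMIs, 248 without ribosomal protein and mitochondrial genes in the total and 90 after thinning.

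The interferon gamma and type I medians were 0.60 and 0.46 with per-cell means, 0.69 and 0.54 without cells above 10000 UMIs and 0.57 and 0.51 without cycling cells, and the type I median was 0.66 without other-lineage UMIs. In that setting the log2 ratio of the effector share among Foxp3 cells was 0.10, and the TNF receptor and NF-kB median, effector over other cells in LYZKL, was 1.15. The tissue list, effector over other cells in WTKL, had a median of 0.61 at 2 effector UMIs. The cell cycle medians of effector over other cells were -0.16 in WTKL and -0.084 in LYZKL without cycling cells.

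Genes with a reported interval that leaves out 0 and a changed sign, LYZKL over WTKL in members, were these on the log2 scale. Without doublets Retnlg was at -0.25, and with per-cell means Ctla4 was at -0.016. Without other-lineage UMIs Adarb1 was at -0.30, Wfdc21 at -0.34, C1qb at 0.076, Il2ra at -0.038, Ctla4 at -0.040, Rora at 0.053 and Batf at 0.10. At 2 Foxp3 UMIs Ly6i was at -0.030 and Wfdc21 at -0.00252, and Pde3b, effector over other cells in WTKL, at 0.69. Without cells above 10000 UMIs Ccl1 was at -0.63, Ly6i at -0.012 and H2-Eb1 at 0.33. Without cycling cells Saa3 was at -0.035, Cfb at -0.56, Ly6i at -0.75 and Nt5e at 0.10. Of genes whose reported interval holds 0, Ifng, at -0.92 without other-lineage UMIs, Bcl2l11, Tnfrsf18, Icos, Tnfrsf9, Tgfb1 and Mcl1 changed sign in 2 to 6 of 12 alternatives. The 186 other Foxp3 cells limit every comparison with them.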

Other observations

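Ighm, the immunoglobulin M heavy chain gene of B cells, was found more widely in effector Foxp3 cells than in other T cells. At 2000 UMIs it was in 42.7% of WTKL members and 37.8% of LYZKL members, in 22.0% and 20.9% of other Foxp3 cells, in 8.41% and 4.92% of Foxp3-negative CD4 T cells and in 5.96% and 2.47% of Cd8a T cells without Foxp3. Cd79b, a chain of the B cell receptor, was rarer, in 2.38% and 2.58% of members, 2.20% of other Foxp3 cells in both libraries and 0.451% and 0.220% of Foxp3-negative CD4 T cells. Igkc, the kappa light chain, was in 35.5% and 16.3% of members and in 36.7% and 15.5% of Foxp3-negative CD4 T cells. Jchain, which joins immunoglobulin chains, was in 8.33% and 2.42% of members and in 9.31% and 3.25% of Foxp3-negative CD4 T cells. Ms4a1, the B cell antigen CD20, was in 0 of 504 WTKL members, for which the exact interval reaches 0.729%.

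Epcam, an epithelial adhesion molecule, was at 32.6 CPM in WTKL members, in 74 cells, and was counted 90 times in LYZKL members, in 65 cells. In Foxp3-negative CD4 T cells it was at 3.45 and 1.82 CPM. Krt8, a keratin of epithelial cells, was at 0 in members of both libraries. Il17a, the cytokine of type 17 cells, was found at 2000 UMIs in 10.1% of WTKL members and 9.21% of LYZKL members, against 37.4% and 31.9% of Foxp3-negative CD4 T cells.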
